A study of Mus musculus with 10 samples.

Results

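The 37 genes described here mark B cells or carry the signal of the B cell receptor. They encode lineage transcription factors, parts of the receptor, the kinases and adaptors behind it, surface and inhibitory receptors, receptors for survival and homing cues, and proteins of antibody secretion. A gene was included when a non-control probe carried its symbol, in the scanner files or after updating, which gave 58 probes for 37 of the 27670 genes on the array. Of these, 36 genes were well above background on at least 5 of the 10 arrays and were tested, and the Fc receptor-like gene Fcrl5 was not.

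The arrays measured total RNA of whole lung from p53-null mice (5 arrays) and wild-type mice (5 arrays). Every mouse was a male of C57BL/6J background, 8 weeks of age, whose lung was taken after breathing a saline aerosol for 30 min. The design text calls the 5 arrays of a genotype biological replicates, and each array held 1 RNA sample. p53, encoded by Trp53, is a transcription factor that halts the cell cycle or starts cell death after DNA damage. The labels name neither the p53 allele nor whether the wild-type mice were littermates. Whole lung also holds blood, so a difference can arise in tissue or in blood cells, and more B cells and more RNA per B cell cannot be told apart.

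Per array, 71.4% to 84.0% of spots had signal well above background, and precision is limited by the number of arrays. The Trp53 probe printed in 10 spots fell by 1.28 on the log2 scale in p53-null lung (SE 0.16, limma adjusted p = 0.00589 over tested probes), although wild-type array 5, at -2.22, lay between the groups. A further Trp53 probe differed by 0.31 ± 0.28. Levels below are log2 signals with each array's 75th percentile at 0, in the order of replicates 1 to 5. Differences are on the log2 scale, p53-null minus wild type, followed by their limma standard error. Each group has 5 arrays unless stated, and p is adjusted over all 21116 genes tested.

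B cells recognise antigen through a membrane immunoglobulin, whose heavy chain in naive cells is IgM, held by the signalling pair Cd79a and Cd79b. Binding activates the kinases Lyn, Blk, Syk and Btk, which use adaptors such as Blnk to switch on the phospholipase Plcg2 and calcium signalling. Coreceptors raise this signal, and receptors such as Cd22, Cd72 and Siglecg recruit phosphatases that lower it. The factors Ebf1, Pax5 and Spib, with the coactivator Pou2af1, keep the B cell programme on, and plasma cells, which secrete antibody, lose Pax5 and gain Jchain and Mzb1. Mouse lung contains B cells in its vessels and in small lymphoid clusters.

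The sequences below show the letters that some of the results rest on. The 60-base probes were chosen because each crosses a splice junction, so its genomic span is wider than the probe and it reads spliced RNA. Those of Cd79a, Blk, Cd72 and Siglecg stand for their genes in the results. The Pax5 one is a further probe of its gene, given beside the Pax5 result, which rests on another. Coordinates of probes are those of the files (mm7).

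Cd79a probe, chr7:21688822-21689079, plus strand: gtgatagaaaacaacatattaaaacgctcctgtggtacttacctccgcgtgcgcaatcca
Blk probe, chr14:58242375-58243512, minus strand: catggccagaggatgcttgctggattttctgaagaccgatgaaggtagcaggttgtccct
Pax5 probe, chr4:44551296-44583850, minus strand: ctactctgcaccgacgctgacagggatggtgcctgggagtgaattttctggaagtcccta
Cd72 probe, chr4:43464012-43466156, minus strand: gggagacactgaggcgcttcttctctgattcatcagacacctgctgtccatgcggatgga
Siglecg probe, chr7:39588251-39593394, plus strand: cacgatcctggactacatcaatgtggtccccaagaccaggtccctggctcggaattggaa

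The promoters, 250 bases before the start (RefSeq, GRCm38.p6), belong to the 3 members with the smallest adjusted p. Capitals mark a match to a searched motif on either strand. Of the 37 genes, 29 matched the RefSeq promoter table, with 35 promoters.

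Cd22 promoter, chr7:30879029-30879278, minus strand: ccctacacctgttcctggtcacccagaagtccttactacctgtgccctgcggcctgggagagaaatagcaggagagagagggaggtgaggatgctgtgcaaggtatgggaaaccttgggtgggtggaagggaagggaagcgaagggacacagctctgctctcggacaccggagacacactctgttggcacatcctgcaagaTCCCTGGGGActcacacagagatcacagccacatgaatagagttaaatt
Spib promoter, chr7:44532072-44532321, minus strand: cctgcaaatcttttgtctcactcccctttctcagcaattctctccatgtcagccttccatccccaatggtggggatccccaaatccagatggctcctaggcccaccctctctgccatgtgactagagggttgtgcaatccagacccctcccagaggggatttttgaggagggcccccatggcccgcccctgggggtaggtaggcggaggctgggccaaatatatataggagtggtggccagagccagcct
Cd72 promoter, chr4:43454627-43454876, minus strand: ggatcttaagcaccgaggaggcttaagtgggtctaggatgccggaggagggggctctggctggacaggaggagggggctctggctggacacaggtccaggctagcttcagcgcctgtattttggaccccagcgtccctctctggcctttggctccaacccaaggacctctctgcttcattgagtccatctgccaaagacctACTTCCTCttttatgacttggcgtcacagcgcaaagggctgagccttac

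The palindrome that Ebf1 reads, searched as TCCC, 2 bases of any kind and GGGA, was in the Cd22 promoter and in 0.779% of all 32851 promoters. GAGGAAGT, a form of the Ets site that Spib and Spi1 read, was in the promoters of Cd72, Btla, Cd37 and Fcrl1, and in 2.44% of all. The octamer ATGCAAAT, read by the Oct factors that Pou2af1 assists, was in those of Blnk and Vpreb3, and in 1.60% of all. These are matches of letters and do not show binding. None of the searched letters was in the Spib window.

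B cell genes were higher in p53-null lung across most of the list. Of 36 tested members, 25 rose and 0 fell, against 4.59% of all tested genes that rose and 2.89% that fell by the same limma fit, and by unadjusted p under 0.05 the member counts were 31 and 0 (15.2% and 12.4% of all genes). The median difference of the members was 1.17, against 0.05 over all genes. Cd22 had the largest difference of the members at 1.82 ± 0.25, a 3.54-fold higher level, and Ebf1 the smallest at 0.0096 ± 0.12. In 26 of the 36 genes every p53-null array lay above every wild-type array, which held for 5.45% of all genes, and for 0 genes of the list was it the other way round (3.88% of all genes).

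**Figure D1:**
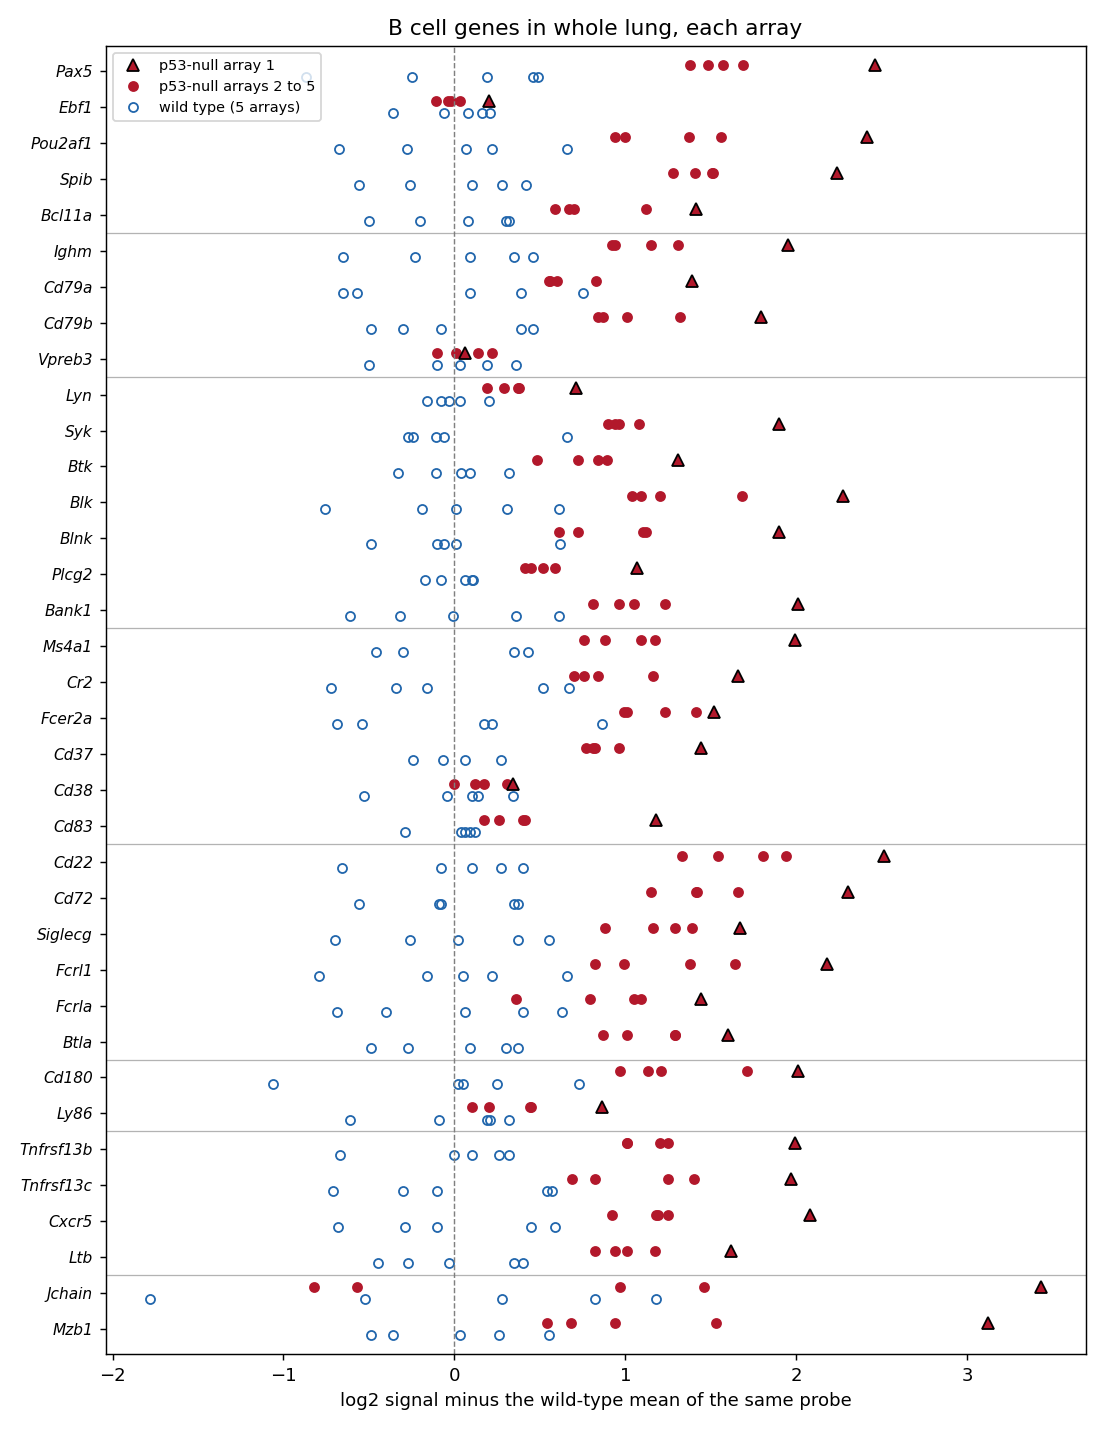
Log2 signal of 36 B cell genes on each array, as the difference from the wild-type mean of the same probe (x axis), with genes grouped by role down the page. Triangles are p53-null array 1, filled circles p53-null arrays 2 to 5 and open circles the 5 wild-type arrays. The triangle is the rightmost point for 34 of 36 genes, and in 26 genes all filled points lie to the right of all open ones.

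1 array stood apart. p53-null array 1 was the highest of the 10 arrays for 34 of the 36 members, against 8.43% of all tested genes, and at the median it lay 0.56 above the next p53-null array. Wild-type array 3 was the lowest for 24 members, against 13.0% of all genes. It was the only array of scan day 2 and had 719 outlier-flagged spots, against 51 to 137 on the other arrays. Scan day cannot be told apart from this array, and without it the members' median was 1.05. Without p53-null array 1, 11 members rose (1.21% of all genes rose), the members' median was 0.98, and the groups still did not overlap in 26 (6.36% of all genes). The size of the differences thus moved less than the number past the threshold.

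Other single arrays also changed the count of members past the threshold. It was 4 without p53-null array 3 (0.663% of all genes rose), 6 without p53-null array 5 (1.13%), 10 without p53-null array 2 (1.28%) and 17 without p53-null array 4 (1.69%). It was 9 without wild-type array 3 (1.01%), 14 without wild-type array 1 (3.07%) or wild-type array 2 (1.22%) and 27 without wild-type array 5 (17.1%). Leaving out wild-type array 4 moved it by less than 1.5 times. Over the 10 fits that each left out an array, the median difference of the members was between 0.98 and 1.29. Spib, Cd22, Cd72 and Btla were called in all 10, and 9 members in none.

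Slide and genotype were nearly confounded. Only 1 slide held both genotypes, with p53-null array 2 and wild-type array 4, and there p53-null lung was higher for 32 of 36 members by a median of 0.43 (57% of all genes, median 0.082). With the lower and higher range of slide numbers as a block, 13 members rose (2.05% of all genes) and the median was 1.16. Within the lower range (4 p53-null and 3 wild-type arrays) the median was 1.18, and within the higher range, which held 1 p53-null array, it was 0.91. In the lower range limma called 0 members (0.0237% of all genes rose), with 28 higher by unadjusted p under 0.05 (7.60% of all genes). The higher range, with 1 p53-null array, is given as a median alone. With slide as a fixed block the comparison rests on the 1 slide with both genotypes. The median was then 0.43, and 0 members and 0 of all 21116 genes were called. With slide as a random block 21 members rose (715 of 21116 genes rose) and the median was 1.15. Beyond these fits the part of the slide in these differences was not tested.

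**Figure D2:**
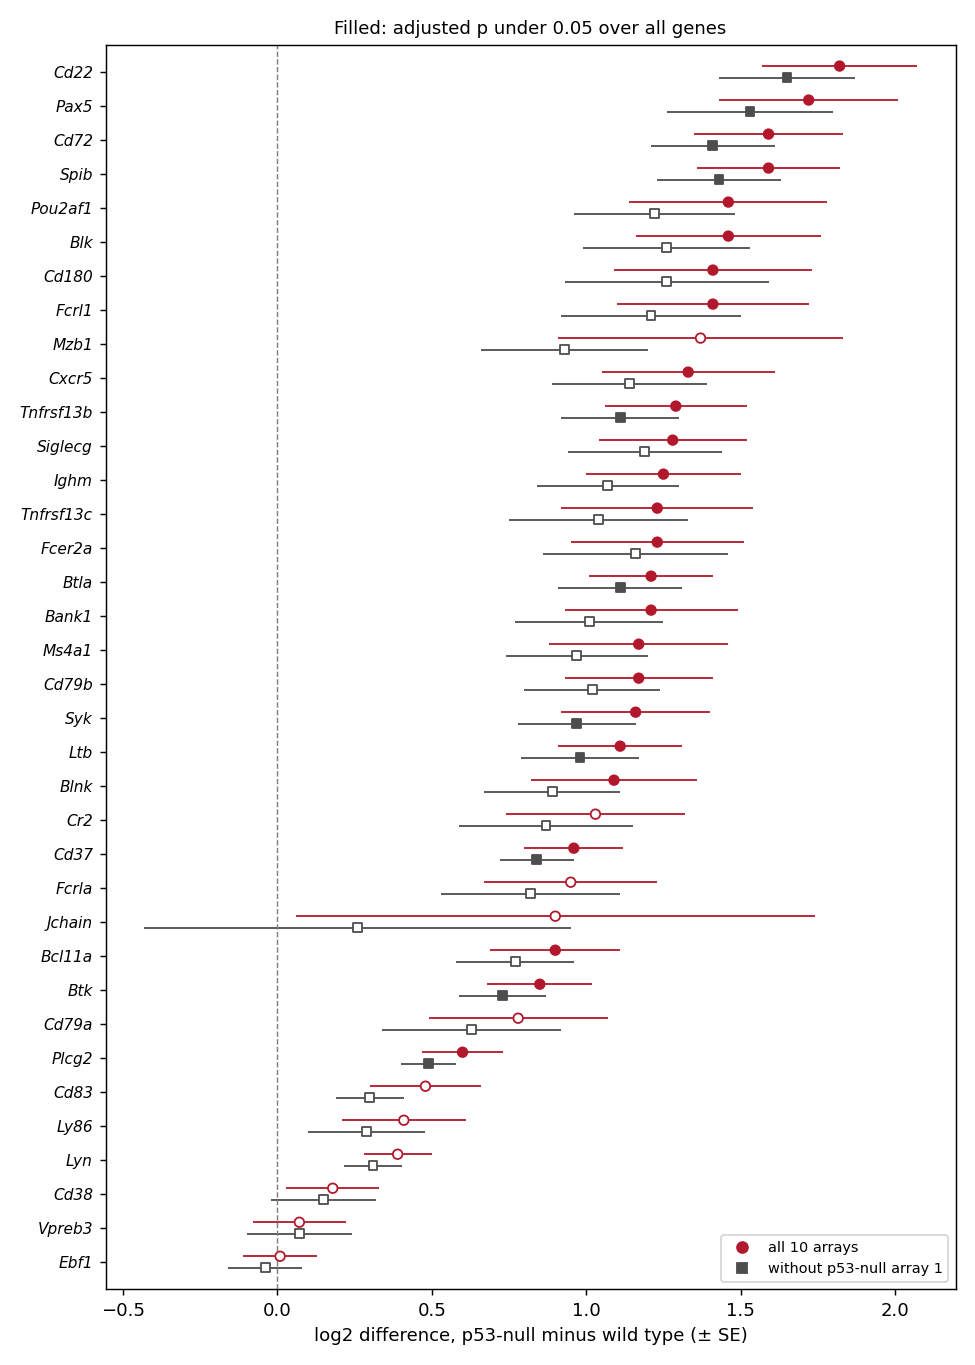
Log2 difference, p53-null minus wild type (x axis), of 36 B cell genes with bars of 1 SE. Circles are fits of all 10 arrays and squares fits without p53-null array 1, filled where the adjusted p over all genes was under 0.05. The order runs from Cd22 at 1.82 to Ebf1 at 0.0096, and 25 circles and 11 squares are filled.

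Of the 5 lineage transcription factors 4 rose, with a median difference of 1.46. Pax5, which commits cells to the B lineage, read -1.67, -2.65, -2.44, -2.75 and -2.56 on the p53-null arrays, against -3.67, -3.94, -5.00, -3.64 and -4.38 on the wild-type arrays. The groups did not overlap, p53-null array 1 was highest and wild-type array 3 lowest, and the difference was 1.72 ± 0.29 (limma adjusted p = 0.0169). Spib, an Ets factor of mature B cells and plasmacytoid dendritic cells, had levels of 0.79, 0.056, -0.043, -0.17 and 0.064 in p53-null lung, against -1.71, -1.03, -2.01, -1.17 and -1.35 in wild type. All p53-null arrays were above the wild-type arrays, by 1.59 ± 0.23 (limma adjusted p = 0.0115). Pou2af1, the coactivator that works with Oct factors on octamer sites, read 3.01, 1.60, 2.16, 1.54 and 1.97, against 0.32, 1.26, -0.078, 0.82 and 0.67 in wild type. The groups were separate, at 1.46 ± 0.32 (limma adjusted p = 0.0313), with p53-null array 1 well above the rest. Bcl11a, a zinc-finger factor needed for early B cell development, read -1.06, -1.80, -1.77, -1.88 and -1.35 on p53-null arrays, against -2.67, -2.15, -2.97, -2.17 and -2.39 on wild-type arrays. There the gap between the groups was 0.27, close to the 0.28 of Pou2af1, and the difference was 0.90 ± 0.21 (limma adjusted p = 0.0349).

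Ebf1, which acts with Pax5 in B cells and is also active in stromal and fat cells, did not share the pattern. Its levels were -2.40, -2.62, -2.64, -2.71 and -2.57 in p53-null lung and -2.52, -2.39, -2.66, -2.44 and -2.96 in wild type, which overlap, with a difference of 0.0096 ± 0.12 (limma adjusted p = 0.968). The sign of that small difference turned in 12 other settings. A second Ebf1 probe gave 0.56 ± 0.26. Pax5 (1.53) and Spib (1.43) were still called without p53-null array 1, and Pou2af1 (1.22) and Bcl11a (0.77) were not. The coding probe of Pax5 printed above had clear signal on 5 p53-null arrays and 1 wild-type array, and gave 1.16 ± 0.49 (limma adjusted p = 0.162 over tested probes). The other 2 Bcl11a probes gave 1.21 and 1.37, both called.

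Of the 4 genes of the receptor complex 2 rose, with a median of 0.98. Cd79b, one chain of the signalling pair, read 3.66, 2.74, 2.88, 2.71 and 3.19 on p53-null arrays, against 1.79, 2.26, 1.38, 2.33 and 1.57 on wild-type arrays. The groups were separate with p53-null array 1 highest, and the difference was 1.17 ± 0.24 (limma adjusted p = 0.0261). For its partner Cd79a the levels were -2.43, -2.99, -3.22, -3.26 and -3.27 in p53-null lung, against -4.39, -3.73, -4.47, -3.43 and -3.07 in wild type. Here wild-type array 5 lay above 3 p53-null arrays, so the groups overlapped, and the difference of 0.78 ± 0.29 did not pass (limma adjusted p = 0.118). Vpreb3, a chaperone-like partner of immunoglobulin chains in immature B cells, had overlapping levels of 1.88 to 2.20 and 1.48 to 2.34 and differed by 0.072 ± 0.15, and its second probe by -0.10 ± 0.14.

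Ighm encodes the constant region of the IgM heavy chain. The 3 probes that carry its name behaved differently. The third lies apart from the others on chromosome 12, and whether it reads the constant region was not determined. The probe at chr12:110940000-110940059 (mm7), which had the highest signal, read 5.33, 4.30, 4.53, 4.32 and 4.69 on p53-null arrays, against 3.15, 3.84, 2.73, 3.73 and 3.47 on wild-type arrays. The groups were separate, at 1.25 ± 0.25 (limma adjusted p = 0.0263). The probe at chr12:110942769-110942828, in 10 spots, read 5.29, 2.08, 3.42, 2.92 and 1.83 in p53-null lung, against 0.33, 2.80, 1.17, 2.12 and 2.61 in wild type. On that probe p53-null arrays 2 and 5 each lay below 3 wild-type arrays, and the difference of 1.30 ± 0.69 did not pass (limma adjusted p = 0.255 over tested probes). The third, which the files place at chr12:111809640-111809699, had no wild-type array with signal well above background. It read -2.26, -7.27, -4.13, -6.45 and -5.25 on p53-null arrays, against -8.80, -8.41, -8.20, -7.65 and -6.80 on wild-type arrays. p53-null array 1 was far above the rest, and p53-null array 2 lay below wild-type array 5. The means were -5.07 in p53-null and -7.97 in wild-type lung. Against the lowest signal well above background on each array, the bound on their ratio was 4.12-fold. This probe passed the filter through its p53-null arrays alone, and it was not called (limma adjusted p = 0.0644 over tested probes). Without p53-null array 1 the p53-null mean was -5.78 and the bound 2.53-fold. Without p53-null array 1, neither Cd79b (1.02) nor Ighm (1.07) was called, and leaving out each array in turn kept both calls in 6 of 10 fits.

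Among the 7 kinases, adaptors and phospholipases behind the receptor 6 rose, with a median of 1.09. Syk, the kinase that docks on the phosphorylated Cd79 chains and is also used by myeloid cells, read 1.62, 0.80, 0.68, 0.66 and 0.62 on p53-null arrays, against -0.52, -0.39, -0.55, -0.34 and 0.38 on wild-type arrays. Wild-type array 5 was far above the other wild-type arrays and still below every p53-null array, and the difference was 1.16 ± 0.24 (limma adjusted p = 0.0261). Btk, the kinase whose loss causes X-linked agammaglobulinaemia in humans, had levels of -0.76, -1.18, -1.23, -1.59 and -1.35 in p53-null lung, against -2.03, -2.18, -2.40, -1.75 and -1.98 in wild type. The groups did not overlap, with a gap of 0.16 and a difference of 0.85 ± 0.17 (limma adjusted p = 0.0244). Blk, a Src-family kinase largely restricted to B cells, read -2.68, -3.27, -3.75, -3.86 and -3.91, against -5.14, -4.34, -5.71, -4.64 and -4.94 in wild type. All p53-null arrays were above, by 1.46 ± 0.30 (limma adjusted p = 0.0268), a 2.75-fold higher level.

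Lyn, the Src-family kinase that starts the receptor signal and also feeds its inhibition, read 3.09, 2.76, 2.67, 2.75 and 2.57 on p53-null arrays, against 2.41, 2.30, 2.22, 2.35 and 2.58 on wild-type arrays. Wild-type array 5 was just above the lowest p53-null array, and the difference of 0.39 ± 0.11 did not pass (limma adjusted p = 0.0599). Its second probe gave 0.31 ± 0.22. Blnk, the adaptor that joins Syk to Btk and Plcg2, read 3.52, 2.23, 2.74, 2.34 and 2.72 in p53-null lung, against 1.56, 2.24, 1.13, 1.52 and 1.63 in wild type. Wild-type array 2 just exceeded p53-null array 2, so the groups touched, and the difference was 1.09 ± 0.27 (limma adjusted p = 0.0405). Plcg2, the phospholipase that opens calcium signalling, had 2.91, 2.29, 2.43, 2.25 and 2.36 on p53-null arrays, against 1.76, 1.94, 1.67, 1.95 and 1.90 on wild-type arrays. Separate groups with little spread in wild type gave 0.60 ± 0.13 (limma adjusted p = 0.0309). For Bank1, a scaffold that binds Lyn, the levels were -0.60, -1.65, -1.38, -1.80 and -1.56, against -2.62, -2.25, -3.22, -2.0 and -2.93 in wild type. The groups were separate by 1.21 ± 0.28 (limma adjusted p = 0.0354), and a second tested Bank1 probe, across a junction, gave 1.53. Without p53-null array 1, Syk (0.97), Btk (0.73) and Plcg2 (0.49) were still called, and Blk (1.26), Blnk (0.89) and Bank1 (1.01) were not.

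Among the 6 co-receptors and surface markers 3 rose, with a median of 0.99. Ms4a1, which encodes CD20, read 2.58, 1.47, 1.68, 1.35 and 1.76 on p53-null arrays, against 0.13, 0.94, 1.02 and 0.29 on wild-type arrays 1, 2, 4 and 5. Its spot on wild-type array 3 was an outlier and was left out, so n = 4 there, and the difference was 1.17 ± 0.29 (limma adjusted p = 0.0452). The groups did not overlap, and a second Ms4a1 probe, with all 10 arrays, gave 1.27. Fcer2a, the low-affinity IgE receptor CD23 of follicular B cells, had levels of -0.78, -1.31, -1.07, -1.29 and -0.89 in p53-null lung, against -2.13, -2.08, -2.99, -1.44 and -2.84 in wild type. Wild-type array 4 came within 0.13 of the lowest p53-null array, and the difference was 1.23 ± 0.28 (limma adjusted p = 0.0328). Cd37, a tetraspanin of B cells, read -1.47, -2.09, -2.10, -2.14 and -1.95, against -3.15, -2.85, -2.64 and -2.98 on wild-type arrays 1, 2, 4 and 5. Its spot on wild-type array 3 was also left out (n = 4), and the separate groups differed by 0.96 ± 0.16 (limma adjusted p = 0.0199).

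The other surface genes were not called. Cr2, the complement receptor CD21, was separate between groups by only 0.022, at -2.70 to -1.74 in p53-null lung and -4.12 to -2.73 in wild type, and differed by 1.03 ± 0.29 (limma adjusted p = 0.0592). Cd83, an activation marker shared with dendritic cells, ranged from 0.89 to 1.90 and 0.43 to 0.84, with p53-null array 1 alone above 1.13, and differed by 0.48 ± 0.18 (limma adjusted p = 0.129). Cd38, an ectoenzyme found on many cell types, overlapped at 0.12 to 0.46 and -0.41 to 0.46 (0.18 ± 0.15). Cd37 (0.84) was still called without p53-null array 1, and Ms4a1 (0.97) and Fcer2a (1.16) were not.

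Inhibitory and Fc receptor-like genes had the second highest median of the roles, 1.35, and 5 of the 6 tested rose. Cd22, a sialic acid-binding receptor that recruits the phosphatase Ptpn6, read 0.76, -0.21, 0.19, -0.42 and 0.053 on p53-null arrays, against -1.83, -1.65, -2.41, -1.35 and -1.48 on wild-type arrays. The lowest p53-null array was 0.94 above the highest wild-type array, the widest gap among the members, with a difference of 1.82 ± 0.25 (limma adjusted p = 0.0109). Leaving out each array in turn, the limma adjusted p of Cd22 was between 0.00186 and 0.0406. Cd72, a lectin-like receptor of the same kind, had levels of 0.73, -0.16, 0.088, -0.42 and -0.15, against -1.66, -1.65, -2.13, -1.22 and -1.20 in wild type. The groups were apart by 0.78 and the difference was 1.59 ± 0.24 (limma adjusted p = 0.0126). Siglecg, a further inhibitory lectin, strong on the B1 subset, read -0.86, -1.24, -1.37, -1.65 and -1.14 in p53-null lung, against -2.79, -2.51, -3.23, -2.16 and -1.98 in wild type. All p53-null arrays were higher, by 1.28 ± 0.24 (limma adjusted p = 0.021).

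Btla, an immunoglobulin-family receptor of B and T cells that binds Tnfrsf14, read -1.10, -1.69, -1.41, -1.83 and -1.41 on p53-null arrays, against -2.33, -2.61, -2.97, -2.40 and -3.19 on wild-type arrays. The gap was 0.50 and the difference 1.21 ± 0.20 (limma adjusted p = 0.0151). Fcrl1, an Fc receptor-like protein of B cells, had levels of -1.97, -3.16, -2.51, -3.33 and -2.77, against -4.10, -3.93, -4.94, -3.49 and -4.31 in wild type. Wild-type array 4 came close to p53-null array 4, and the difference was 1.41 ± 0.31 (limma adjusted p = 0.032), with 1.78 from a second probe. Fcrla, an intracellular relative, overlapped at -0.99 to 0.094 and -2.04 to -0.72 and missed the threshold at 0.95 ± 0.28 (limma adjusted p = 0.0664). Fcrl5 was near background: its brighter probe exceeded it on 1 p53-null and 3 wild-type arrays and differed by -0.37 ± 0.53, untested. Its other probe was above background on 3 p53-null arrays and no wild-type array, with means of -6.87 and -8.69, and was also untested. The bound on that probe was 1.29-fold (1.16-fold without p53-null array 1). Its p53-null mean includes arrays that were not above background, and the brighter probe had the other sign, so no direction is read for Fcrl5. Without p53-null array 1, Cd22 (1.65), Cd72 (1.41) and Btla (1.11) were still called, and Siglecg (1.19) and Fcrl1 (1.21) were not. Further probes of Cd22 and Cd72 gave 1.32 and 1.55, both called.

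Among the Toll-like receptor related genes 1 of 2 rose. Cd180, a homologue of Toll-like receptor 4 that B cells carry, read -1.82, -2.70, -2.62, -2.86 and -2.12 on p53-null arrays, against -3.78, -3.58, -4.89, -3.10 and -3.81 on wild-type arrays. The groups were separate with wild-type array 3 far below the other wild-type arrays, and the difference was 1.41 ± 0.32 (limma adjusted p = 0.0343), 1.26 and not called without p53-null array 1. Its second probe gave 0.86 ± 0.28 and was not called. Ly86, which encodes the MD-1 partner of Cd180 and is also expressed in myeloid cells, overlapped at 1.5 to 2.26 and 0.79 to 1.72 and differed by 0.41 ± 0.20 (limma adjusted p = 0.217).

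All 4 genes of survival, homing and cytokine signals rose, with a median of 1.26. Tnfrsf13b, the receptor TACI for the survival factors BAFF and APRIL, read 0.15, -0.59, -0.64, -0.83 and -0.83 on p53-null arrays, against -1.84, -1.74, -2.51, -1.58 and -1.52 on wild-type arrays. The groups were apart by 0.69, and the difference was 1.29 ± 0.23 (limma adjusted p = 0.0204). Tnfrsf13c, the BAFF receptor of mature B cells, had levels of 0.56, -0.72, -0.012, -0.59 and -0.16, against -1.51, -0.87, -1.71, -0.84 and -2.12 in wild type. The gap was 0.12, with wild-type array 5 lowest, and the difference was 1.23 ± 0.31 (limma adjusted p = 0.0445). Cxcr5, the chemokine receptor that draws B cells into follicles, read 1.27, 0.38, 0.44, 0.11 and 0.37 in p53-null lung, against -0.91, -0.22, -1.49, -0.36 and -1.10 in wild type. It was separate, with p53-null array 1 far above the other p53-null arrays, at 1.33 ± 0.28 (limma adjusted p = 0.0291). Ltb, a lymphotoxin subunit that organises lymphoid tissue and is made by B and T cells, read 4.41, 3.73, 3.80, 3.61 and 3.96, against 2.76, 3.19, 2.34, 3.14 and 2.52 in wild type. Its difference was 1.11 ± 0.20 (limma adjusted p = 0.0207), with no overlap. Tnfrsf13b (1.11) and Ltb (0.98) were still called without p53-null array 1, and Tnfrsf13c (1.04) and Cxcr5 (1.14) were not. The second Tnfrsf13b probe gave 1.17 ± 0.46 and was not called.

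The Tnfrsf13b probe lies on chromosome 11, at chr11:61230555-61230614 (mm7), 8.44 Mb from the Trp53 probe. Ebf1, Cd79b and Bcl11a are on the same chromosome, 24.7, 36.7 and 45.5 Mb away. Whether DNA carried along with the p53 allele contributed to these genes was not tested.

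Neither of the 2 secretory genes was called. Jchain, which links IgM and IgA into polymers, read 3.98, -0.018, 2.01, 1.52 and -0.27 on p53-null arrays, against -1.23, 1.73, 0.026, 0.83 and 1.37 on wild-type arrays. The groups overlapped: p53-null arrays 1 and 3 lay above all wild-type values, whereas p53-null arrays 2 and 5 lay below 4 of them. The difference was 0.90 ± 0.84 (limma adjusted p = 0.528), or 0.26 ± 0.69 without p53-null array 1. Mzb1, an endoplasmic reticulum chaperone of antibody-making cells, had 1.89, -0.55, 0.30, -0.29 and -0.69 in p53-null lung, against -1.72, -0.68, -1.59, -0.97 and -1.20 in wild type. Here p53-null array 1 lay 1.59 above the next array, and the difference was 1.37 ± 0.46 (limma adjusted p = 0.093), or 0.93 ± 0.27 without that array. A second Jchain probe gave 0.83 ± 0.83.

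Over the 10 arrays the 10-spot Ighm probe varied with Jchain, with Pearson's r of 0.97 and Spearman's rho of 0.95. The relation was noticed in these data, so it is given as a description of these arrays with no p. Without the 2 farthest arrays, p53-null 1 and wild-type 1, r was 0.89, and within the lower slide number range 0.98 (n = 7). The same probe with Mzb1 gave r of 0.93 and rho of 0.85, and r of 0.79 without those arrays. With the brighter Ighm probe it gave r of 0.78 and rho of 0.65, and r of 0.52 without them. Mzb1 with Jchain gave r of 0.85 and rho of 0.73, and r of 0.50 without them. The arrays share their hybridisation with both measures, and which part of the Ighm transcript each probe reads was not determined here.

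**Figure D3:**
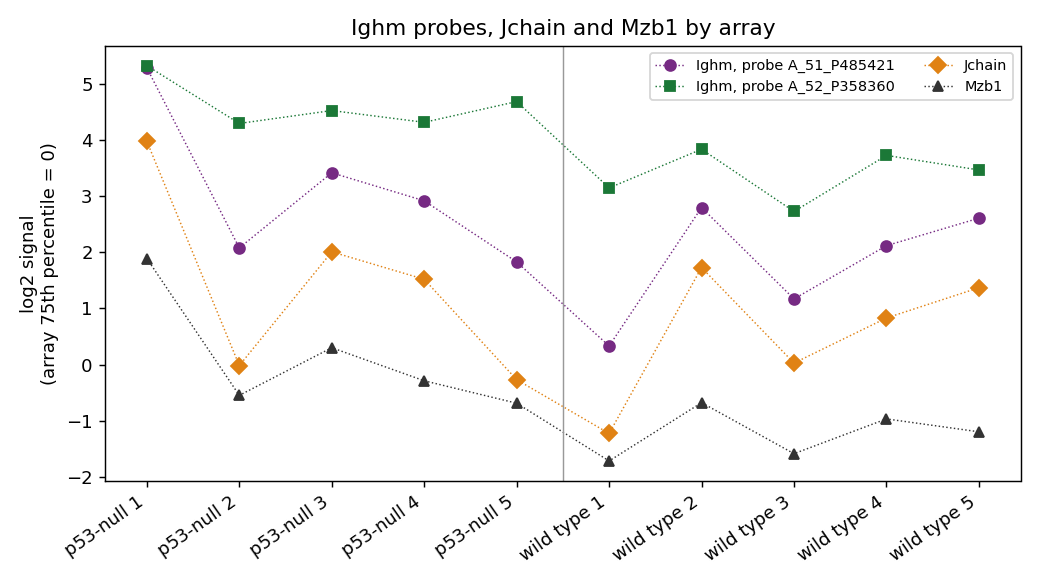
Log2 signal (y axis, array 75th percentile at 0) of Ighm probes and of Jchain and Mzb1 on each array, p53-null arrays on the left of the grey line and wild-type arrays on the right; dotted lines join the points of 1 probe as a guide to the eye. The Ighm probe drawn with circles moves with Jchain from array to array, while the one drawn with squares is higher on every p53-null array than on every wild-type array.

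Other immunoglobulin probes of the array, 32 with 30 tested, gave 2 higher calls and 0 lower ones by limma, with a median of 1.12. Over all probes 1265 of 31598 were called higher, so the 2 calls are close to the general share. By unadjusted p under 0.05 the counts were 10 and 0 (15.2% and 12.4% of all genes). p53-null array 1 was the highest array for 27 of the 30 (8.43% of all tested genes). Both called probes are named Igh-1a in the files, an old name for an IgG2a heavy chain. The first read 2.94, -0.57, 2.76, 1.66 and 0.28 on p53-null arrays, against -4.74, -1.83, -3.44, -2.26 and -0.031 on wild-type arrays (3.87 ± 0.94, limma adjusted p = 0.0401), and the second differed by 3.72 ± 0.91 (limma adjusted p = 0.0419). On the first, wild-type array 5 lay above p53-null array 2, so the groups overlapped. Probes of related constant and variable regions can bind each other's transcripts, so these values are uncertain. They were chosen after their values were seen.

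Many members had further probes. Of 19 further probes that could be tested, 8 were called higher and 0 lower with p adjusted over 31598 probes (7.10% of all probes were called in either direction), 18 had the sign of their gene's main probe and 1, of Vpreb3, the other sign.

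Among genes that work beside the members, some were called as well. For these lists and those below, 4.59% of all tested genes rose and 2.89% fell. With 1 array left out, 0.663% (p53-null array 3) to 17.1% (wild-type array 5) of all genes rose. The highest counts of the lists with 1 array left out were reached without wild-type array 5. Of 24 signalling partners of the receptor, 10 rose and 1 fell, with a median of 0.39. Vav1, an exchange factor (1.04 ± 0.15), and Pik3cd, the lymphocyte PI3-kinase subunit (1.19 ± 0.18), were among those with the smallest p. The phosphatases Ptpn6 (0.87 ± 0.14) and Ptprc (0.70 ± 0.17), which blood cells share, also rose, and the calcium-regulated factor Nfatc1 fell (-0.48 ± 0.13). With 1 array left out the partners called higher ran from 4 to 14, and without p53-null array 1 they were 7, with Nfatc1 not called. Of 17 further transcription factors of the lineage 5 rose, with a median of 0.22, among them Ikzf3 (1.44 ± 0.22), Pou2f2, which encodes Oct-2 (1.38 ± 0.23), and the T and B cell factors Ets1 (0.54 ± 0.10) and Lef1 (0.45 ± 0.091). Of 14 homing and survival genes 6 rose, with a median of 0.29, among them the chemokine receptors Ccr7 (1.12 ± 0.16) and Ccr6 (1.51 ± 0.28) and the costimulatory receptor Cd40 (0.75 ± 0.15). With 1 array left out, 2 to 8 of the transcription factors and 1 to 6 of the homing and survival genes were called higher, and 3 of each without p53-null array 1.

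Genes of early B cells and plasma cells did not pass. Of 11 tested, 0 were called in either direction by limma and 1 was higher by unadjusted p under 0.05, with a median of 0.19. The recombinase genes Rag1 and Rag2 were above background on no array. The plasma cell markers Sdc1 (0.19 ± 0.12), Tnfrsf17 (0.83 ± 0.43), Prdm1 (0.22 ± 0.11) and Xbp1 (-0.24 ± 0.12) had differences of both signs. Which cells of the whole lung gave the signals of these genes was not determined. Of 12 genes of MHC class II presentation, which B cells share with dendritic cells and macrophages, 8 rose, with a median of 0.62, and 4 to 8 with 1 array left out (4 without p53-null array 1). H2-Oa (1.30 ± 0.19) and H2-Ob (1.40 ± 0.23), which form the modulator H2-O found mainly in B cells, had larger differences than H2-DMa (0.74 ± 0.12) and H2-DMb2 (0.67 ± 0.11), and the sizes were not tested against each other.

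T cell, neutrophil and plasmacytoid dendritic cell lists were higher on every p53-null array than on every wild-type array, as the B cell list was. NK cell and red cell lists overlapped between the genotypes. Of 14 T cell genes 8 rose, with a median of 0.75, and the median deviation of the list was 0.11 to 0.71 on p53-null arrays and -0.77 to -0.16 on wild-type arrays. Zap70 (0.80 ± 0.12), Thy1 (0.65 ± 0.11), Cd3g (1.14 ± 0.19) and Cd3d (1.0 ± 0.20) had the smallest p. The count of T cell genes was 2 to 9 with 1 array left out, and 3 without p53-null array 1. Of 11 neutrophil genes 7 rose, with a median of 1.36, at 0.33 to 1.39 on p53-null arrays and -0.85 to -0.55 on wild-type arrays, and 5 to 7 rose with 1 array left out. Mmp9 (1.35 ± 0.16) and S100a9 (2.42 ± 0.28) led it. Of the genes of neutrophil precursors, Mpo (1.74 ± 0.67), Ngp (0.68 ± 0.97) and Camp (0.58 ± 1.06) were above background on all 10 arrays and not called, and Elane was above it on none. The B cell members lay at 0.24 to 1.26 on p53-null arrays and -1.04 to -0.20 on wild-type arrays. Of 9 NK cell genes 1 rose (Prf1, 0.83 ± 0.20), but all 9 had differences above 0, with a median of 0.48. By unadjusted p under 0.05 the NK counts were 5 higher and 0 lower (15.2% and 12.4% of all genes). The NK list lay at 0.063 to 0.56 on p53-null arrays and -0.72 to 0.42 on wild-type arrays. Of 6 plasmacytoid dendritic cell genes 2 rose, Irf7 (1.04 ± 0.15) and Siglech (0.87 ± 0.18), with a median of 0.34. That list lay at 0.017 to 0.34 on p53-null arrays and -0.27 to -0.035 on wild-type arrays. The red cell and platelet list had 1 of 8 rise, the integrin gene Itga2b (1.28 ± 0.27), and the list's median deviation was -0.46 to 1.07 on p53-null arrays and -0.85 to -0.014 on wild-type arrays. Its red cell genes Hba-a1, a haemoglobin chain (-0.58 ± 0.79), and Alas2, a haem enzyme (-0.45 ± 0.98), had lower means in p53-null lung and were not called. Calls in the NK, plasmacytoid and red cell lists were 0 to 2, 1 to 3 and 0 to 2 with 1 array left out, and 0, 1 and 0 without p53-null array 1. With 4.59% of all genes called higher, the 1 call in each of the NK and red cell lists is not read as a result. The part of blood or of other white cells in the B cell differences was not tested.

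Markers of the lung's own cells went otherwise. Of 10 fibroblast genes 5 fell and 0 rose (2.89% and 4.59% of all genes), with a median of -0.51. Col3a1 (-0.94 ± 0.12) and Col1a2 (-0.82 ± 0.11) had the smallest p. The number that fell was 2 to 6 with 1 array left out (52 to 3015 of all 21116 genes fell), and 2 without p53-null array 1 (93 of all genes). Of 14 epithelial genes 0 were called by limma, and 0 by unadjusted p under 0.05, with a median of -0.018. Of 10 endothelial genes 1 fell, Plvap (-0.40 ± 0.087). Differences were below 0 for 8 of them and above 0 for 2, with a median of -0.17. The endothelial list lay at -0.24 to 0.015 on p53-null arrays and 0.043 to 0.15 on wild-type arrays, without overlap. Of 11 macrophage genes Csf1r rose (0.56 ± 0.14) and Marco fell (-0.77 ± 0.17). Skeletal muscle genes stood high on p53-null arrays 4 and 5 and on wild-type array 2, and squamous genes on p53-null array 5 and wild-type array 2. Of 10 muscle and 6 squamous genes 0 were called by limma, and 0 by unadjusted p under 0.05. Without these 3 arrays, a choice made after seeing the data, the B cell median was 1.35 and 0 members were called (0.0189% of all genes rose), with 31 by unadjusted p under 0.05, all of them higher (16.5% of all genes in either direction). Of 7 adipocyte genes Lep rose, with means of -6.09 in p53-null and -8.12 in wild-type lung and signal above background on 4 and 1 arrays. The thymocyte list had 1 of 6 rise, Cd8a, which the T cell list also holds.

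**Figure D4:**
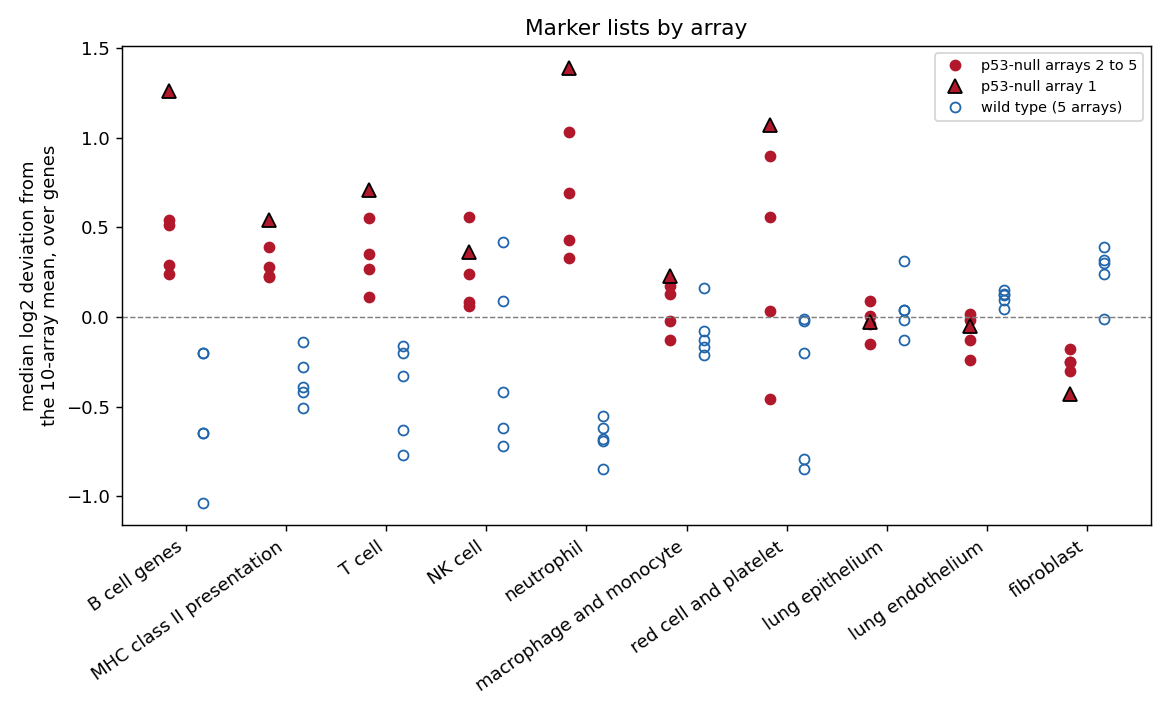
Median deviation of each marker list from the mean of the 10 arrays (y axis, log2) by list (x axis), with p53-null arrays on the left of each pair and wild-type arrays on the right; triangles are p53-null array 1. B cell, MHC class II, T cell and neutrophil lists are higher on every p53-null array than on every wild-type array. The fibroblast and lung endothelium lists are lower on every p53-null array.

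**Figure D5:**
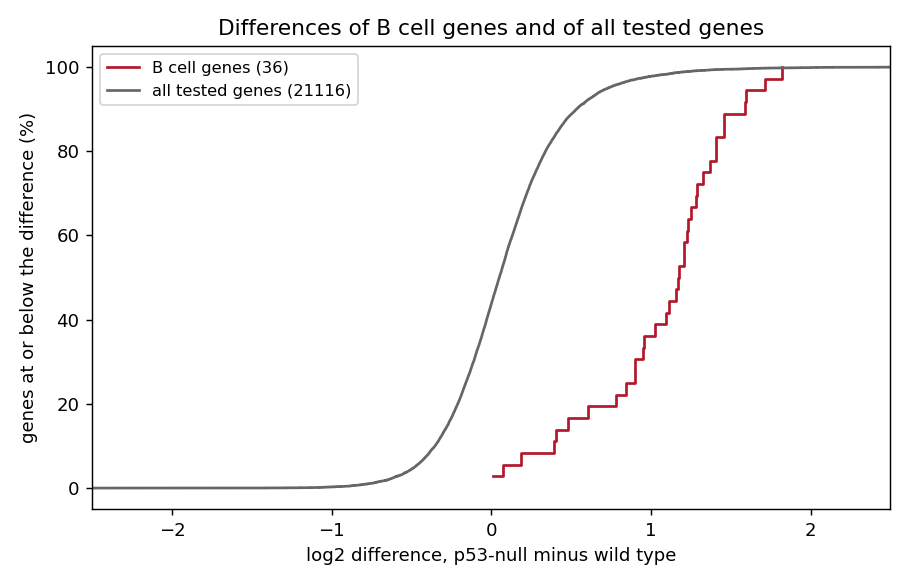
Share of genes at or below a given log2 difference (y axis, percent), p53-null minus wild type (x axis), for 36 B cell genes in red and 21116 tested genes in grey. The median is 1.17 for the B cell genes and 0.05 for all genes, and all 36 differences lie above 0.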

How the data were processed

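Cy3-labelled cRNA of total lung RNA was hybridised to Agilent arrays read in 1 colour, per the labels. Agilent Feature Extraction 9.5 is named in the submitters' processing notes. The deposited intensity of each spot is background-subtracted and detrended, per the file headers, and equalled the series' value table exactly (largest difference 0), without scaling between arrays.

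From the deposited intensity, log2 signals were taken relative to the 75th percentile of the 43379 non-control spots of an array. Outlier-flagged spots were dropped, and repeated spots of 1 probe averaged. The probe with the highest mean stands for its gene. The 41174 probes were named through RefSeq accessions (22951), symbols (6659) or synonyms (3109), and the rest (8455) by the file. The filter, signal well above background on 5 or more arrays, left 21116 of 27670 genes.

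The test was limma 3.58.1 (lmFit, eBayes; R 4.3.3) with Benjamini-Hochberg adjustment over all tested genes and a threshold of 0.05. Where a probe was dim on every array of a group, a bound is given. It sets the mean of the bright group over a floor for the dim one, averaged from the higher, on each array, of the signal of that probe and the dimmest signal that was well above background. The members and the 18 companion lists were chosen with earlier results of these data known. Values on every array are given for called members and for Cd79a, Cd79b, Ms4a1, Pax5, Ighm, Btk, Syk and Lyn. Up to 4 called genes by smallest p are named from each companion list, with Ptprc and Ptpn6. Some genes of these lists are not reported here. Other settings changed the background, scaling, filter, probe choice, slide, replicate number, scan day, array weights, variance model, threshold and arrays left out. Leaving out the 3 arrays high in muscle or squamous genes (p53-null arrays 4 and 5, wild-type array 2) and removing a probe GC trend were added after seeing the data.

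On simulated data for 5 p53-null against 5 wild-type arrays, with 20606 genes, the code recovered 41.8% of 67 genes changed 1.5-fold, 61.2% of 67 changed 2-fold and 90.9% of 66 changed 4-fold, with 9 wrong calls. Noise was drawn independently for each gene and array. Shifts shared by the genes of an array and slide effects were not simulated, so these rates need not hold for the real arrays.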

Additional observations from a re-analysis of the deposited data

Results flagged for a closer look

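In each genotype the highest or lowest of the 5 arrays was compared with the nearest array, and its gap was set against Dixon's 95% critical share of the group's range. Chance flags about 1 in 20 groups. Of 74 groups of member genes, 10 had such an array, and in 8 of them it was p53-null array 1. Log2 signals there were -1.67 for Pax5 (nearest p53-null array -2.44), 0.79 for Spib (0.064), 1.62 for Syk (0.80), 2.91 for Plcg2 (2.43) and -1.47 for Cd37 (-1.95). For Cd83 it read 1.90 (1.13), for Tnfrsf13b 0.15 (-0.59) and for Cxcr5 1.27 (0.44). The other 2 were wild-type array 5 for Syk, at 0.38 (nearest wild-type array -0.34), and wild-type array 1 for Cd83, at 0.43 (0.76). The flags share arrays, and the members were measured together, so they are not 10 independent events.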

How the results depend on the processing

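Over every setting run, 0 members were called lower. The members' median kept its sign and lay between 0.98 and 1.29 with 1 array left out, and 0.92 without p53-null array 1 and wild-type array 5 together. A fixed slide block, which rests on the 1 slide with both genotypes, gave 0.43. The number of members called higher, 25 as reported, was less stable. It was 14 with no filter on dim probes, 13 with slide number range as a block, 9 with scan day as a block, and 4 to 27 with 1 array left out. It was 0 with slide as a fixed block, within the lower slide number range, within the higher one, where 1 p53-null array leaves nothing to read from the 0, with the 3 arrays high in muscle or squamous genes left out, and at an adjusted p under 0.01. It was 26 with the GC trend of each array removed.

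The count over all genes, 1581 as reported, was 583 with median scaling, 538 with no filter, 998 with the mean of all probes, 697 with slide number range as a block, 322 with scan day as a block and 6516 with array weights. It was 0 with slide as a fixed block and within the higher slide number range, 16 within the lower range, 56 at an adjusted p under 0.01, 10 with the 3 arrays high in muscle or squamous genes left out, and 5717 without p53-null array 1 and wild-type array 5. With 1 array left out it ran from 192 (p53-null array 3) to 6619 (wild-type array 5). Scan day 2 held wild-type array 3 alone, so that block equals leaving it out. The causes of the other shifts were not tested.

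The design text states no pairing by replicate number. Deviations of same-numbered arrays from their group means correlated at -0.101, -0.221, 0.00127, -0.133 and -0.211. These values show no clear pairing, and whether samples were paired was not determined. With the replicate number as a block 0 members and 26 genes in all were called, by limma, with a members' median of 1.18.

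Of 1080 single-gene values under other settings, 742 kept sign and side of the threshold, 301 lost the call, 15 gained it and 22 changed sign, all in genes that were not called. Ebf1 was -0.029 with normexp background, -0.06 with quantile and -0.061 with median scaling, -0.19 with the fixed and -0.0029 with the random slide block, and -0.073 within the higher slide range. It was -0.0078 with the scan day block, -0.066 with array weights, -0.13 without p53-null array 1 and wild-type array 5, and -0.082 to 0.06 with 1 array left out (-0.038 without p53-null array 1, -0.0078 without wild-type array 3, -0.082 without wild-type array 5). Vpreb3 was -0.013 with the mean of all probes, -0.14 within the higher slide range, -0.047 with array weights, -0.051 (without wild-type array 5) to 0.16 with 1 array left out, and -0.05 without wild-type array 5 and p53-null array 1. Fixed slide block and higher slide range gave -0.11 and -0.033 for Cd38 and -0.85 and -0.44 for Jchain, and the fixed block -0.11 for Ly86. Over 18 settings, called higher were 0 to 14 receptor partners, 0 to 8 lineage factors, 0 to 7 homing genes, 0 to 8 MHC class II genes, 0 to 10 T cell genes and 0 to 7 neutrophil genes. With 5 arrays per group, signal near background limits Fcrl5 and 1 Ighm probe.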
